A study of Mus musculus with 4 samples.

Results

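Nascent transcription was compared between 3T3-L1 cells carrying an siRNA against GPS2 (siGPS2) and cells carrying a control siRNA (siCTL), both after 3 hours of FCCP. The comparison rests on 2 of the 4 libraries of the study, 1 per siRNA, sequenced on the same lane. It was made over 39739 strand-specific windows of 10 kb on the 19 autosomes, those with at least 40 reads of mapping score 10 or more in both libraries together, out of 162648 such windows with a read. The other pair, siGPS2 against siCTL without FCCP, shares no library with it and is given beside it. With 1 library for each siRNA in each state, differences could not be set against the spread between replicates, and the intervals given are those of counting or of spread along the genome.

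GPS2 (G protein pathway suppressor 2) is a subunit of the nuclear corepressor complex that contains NCOR or SMRT and a histone deacetylase, and it also restrains ubiquitin signalling in the cytosol. The title of the series names it as a cofactor that moves from mitochondria to the nucleus. FCCP carries protons across the inner mitochondrial membrane and so uncouples respiration. 3T3-L1 is a mouse preadipocyte line. GRO-seq labels RNA while polymerases extend it in isolated nuclei, and its reads therefore mark transcription in progress by strand. Along a gene such reads usually gather near the start, where polymerases pause, spread over the body, and run on past the site where the transcript is cleaved. Coordinates are mm8. The gene annotation used here has another build, so no read was assigned to a gene, and neither the level of Gps2 nor any marker of the cell line was analysed here.

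The 2 libraries differed in kind. Of nearly equal numbers of deposited reads, 4199999 in siGPS2 and 4200001 in siCTL with FCCP, 2312432 (55.1%) and 3455391 (82.3%) had a score of 10 or more. Within the tested windows the siGPS2 reads of that score lay on a median of 16 of the 50 bins of 200 bp, and the siCTL reads on a median of 29, for medians of 34 and 53 reads. Bins with 10 or more reads held 24.7% of siGPS2 reads and 9.34% of siCTL reads. Without FCCP these shares were 28.8% and 9.96%, so the 2 siGPS2 libraries resembled each other and not the control libraries. The siRNA and the kind of library cannot be told apart. To allow for the piling up of reads, many results are also given on occupied bins, that is, on the number of 200 bp bins that hold at least 1 read. The recurrence of window calls without FCCP and the calls between FCCP states rest on reads only.

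**Figure D1:**
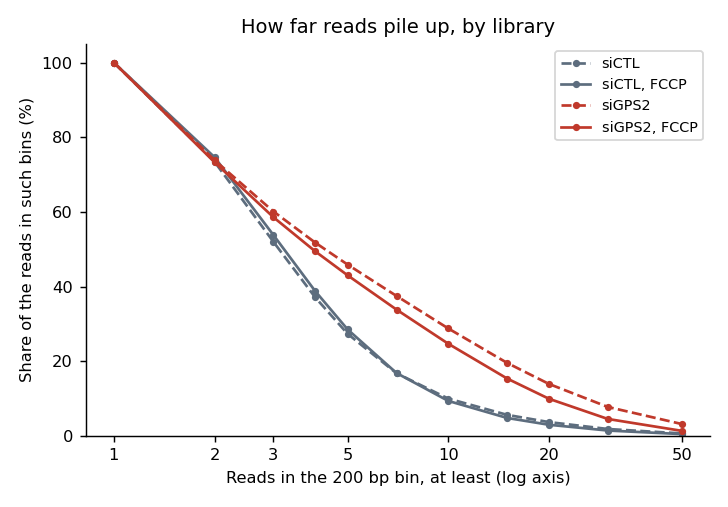
Share of the reads of score 10 or more on the autosomes (y axis, %) that lie in 200 bp bins with at least the number of reads on the x axis (log axis), for each of the 4 libraries. At 10 reads the siGPS2 libraries stand at 24.7% with FCCP and 28.8% without, and the siCTL libraries at 9.34% and 9.96%.

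A window was called when its scaled ratio was at least 1.5-fold, with 0.5 added to each count, and the exact 99.9% counting interval excluded no change. On reads, 2370 windows were called higher in siGPS2 (5.96% of those tested) and 2978 lower (7.49%). The quartiles of all log2 ratios were -0.57 and 0.36, with a median of -0.11. The strands had like shares, with 5.93% higher and 7.49% lower on the plus strand and 6% and 7.49% on the minus strand. Chromosome medians of the log2 ratio ran from -0.16 on chromosome 15 to -0.00072 on chromosome 11.

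The split between the directions depended on the scale and on the reads and windows used. Of the calls, 44.3% were higher with the median of window ratios, 51.9% with total reads and 60.2% with a trimmed mean of M values. It was 56.8% with a minimum of 100 reads, 55.4% with reads of any score, 55.4% with 1 read kept per cluster, 40.1% with score 42 alone and 34.2% with windows of 5 kb. The trimmed mean moves every log2 ratio up by about as much as the median window lies below 0, which then stands at -0.00069. No general rise or fall of transcription with siGPS2 is therefore given. All 2370 windows called higher stayed so with the trimmed mean and with total reads. Of the 2978 called lower, 2061 (69.2%) stayed so with the trimmed mean and 2517 (84.5%) with total reads. The windows and regions below are those called with the median of window ratios.

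**Figure D2:**
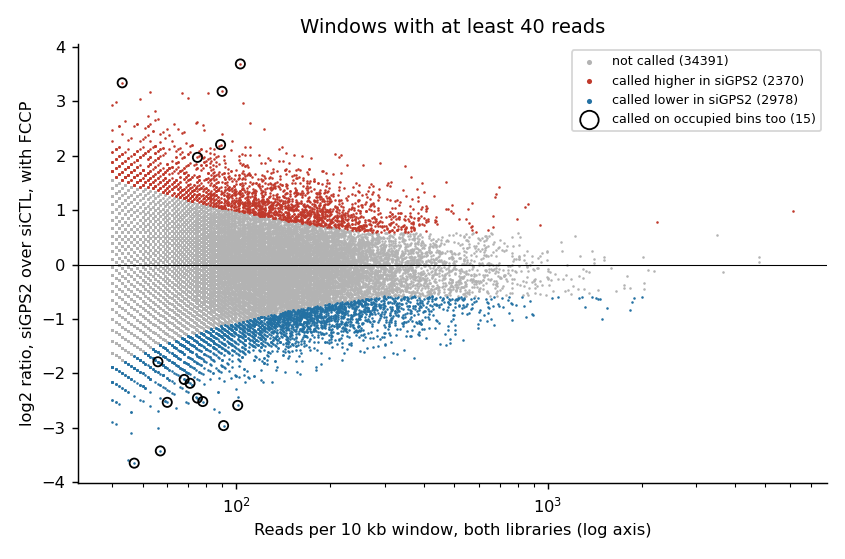
Log2 ratio of siGPS2 over siCTL with FCCP (y axis) against the reads in both libraries (x axis, log axis) for each of the 39739 windows, coloured by call, with circles around the 15 also called on occupied bins. The called windows lie on both sides at all read numbers, 2370 above and 2978 below.

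Windows called on reads were compared with the pair without FCCP. There 2332 of the 2370 higher windows (98.4%) lay above 0, against 43.4% of all tested windows, and 1295 (54.6%) were called higher, against 6.3% of all. Of the 2978 lower windows 2853 (95.8%) lay below 0, against 56.6%, and 1366 (45.9%) were called lower, against 9.36%. Windows called in opposite directions numbered 0.

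Counted on occupied bins, which cannot exceed 50 in a window and so lose power where most bins hold a read, 5 windows were higher (0.0126%) and 10 lower (0.0252%), all 15 called the same way on reads. The direction was shared more widely than the call. Of windows called higher on reads, 2105 (88.8%) were also higher on bins, against 45.6% of all tested windows, and of those called lower 2150 (72.2%) were lower, against 54.1%. The bin ratio itself depended on density. Its median log2 was -0.15 in tested windows with 40 to 59 reads and 0.51 in those with 400 or more. Reads per occupied bin were 4.21 in siGPS2 and 2.24 in siCTL in the windows called higher, and 2.15 and 3.37 in those called lower. Over all tested windows these densities were 2.66 in siGPS2 and 2.41 in siCTL. Reads per occupied bin rise with the number of reads, so denser packing in the library with the higher count follows in part from the choice of windows. How much of each difference packing makes up was not tested.

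The 5 windows higher on both measures are as follows. On the minus strand of chromosome 7, from 44340001 to 44350000, siCTL gave 10 reads and siGPS2 93, a log2 ratio of 3.69 (95% interval 2.81 to 4.86), on 8 and 29 bins, and without FCCP it held 4 and 61 reads. Chromosome 14, minus strand, 44190001 to 44200000 held 5 and 38 reads (3.34, 2.11 to 5.16). Chromosome 13, minus strand, 55260001 to 55270000 held 12 and 78 reads (3.18, 2.35 to 4.25). The reads in each of these spread over at least 22 bins in siGPS2, so they are not single pile-ups. Chromosome 8, plus strand, 122000001 to 122010000 had 21 siCTL and 68 siGPS2 reads with FCCP, but 26 and 20 without it. Chromosome 9, plus strand, 51610001 to 51620000 held 20 and 55 reads with FCCP and 7 and 9 without. In 4 of the 5 the ratio was larger with FCCP than without, the exception being chromosome 7. These windows were picked on the pair with FCCP, so their ratios in that pair lean upward. A smaller ratio without FCCP can follow from that choice alone, and a difference between the FCCP states was not tested in these windows. Without FCCP, chromosome 14 held 2 and 8 reads (2.27) and chromosome 13 held 8 and 23 (1.97), and the windows on chromosomes 14, 8 and 9 were not called.

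Among the 10 windows lower on both measures, the minus strand of chromosome 5 from 122090001 to 122100000 gave 45 reads for siCTL and 2 for siGPS2 (log2 -3.65, 95% interval -7.05 to -2.02), and 61 and 16 without FCCP. Chromosome 10, plus strand, 94000001 to 94010000 held 54 and 3 reads (-3.43, -5.96 to -2.01). Chromosome 7, plus strand, 67970001 to 67980000 held 84 and 7 reads, on 40 and 7 bins, and 89 and 15 reads without FCCP. In these windows siCTL reads covered most bins and siGPS2 reads few. The next 5 had 54 to 91 reads in siCTL and 6 to 10 in siGPS2. They lie on chromosome 17, plus strand, from 75160001, chromosome 6, plus strand, from 8230001, chromosome 3, plus strand, from 41690001, chromosome 5, plus strand, from 28690001, and chromosome 3, minus strand, from 87950001. All 8 were also lower in the pair without FCCP, by 1.29-fold to 4.61-fold.

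Called windows adjoined one another in places. Runs of 3 or more windows on 1 strand called the same way formed 31 regions higher in siGPS2, with 103 windows, and 89 regions lower, with 307 windows. Some lie close together on 1 strand, such as those from 11200001 and 11250001 on chromosome 8, minus strand, so not all are separate places. The regions were picked on the reads that give their ratios, which therefore lean away from 1. The pair without FCCP, from other libraries, had the same sign in 31 of the 31 and 85 of the 89, with median log2 ratios of 0.93 and -0.87, against 1.08 and -1.04 with FCCP. On occupied bins the sign was the same in 31 of 31 higher regions, against 45.6% of all tested windows above 0. It was the same in 53 of the 89 lower regions, a share not far from the 54.1% of all tested windows below 0. Since the bin ratio depends on density, shares of all tested windows are not a like baseline for regions in either direction. Ratios of regions carry a 95% interval from a jackknife over their 200 bp bins.

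Of the higher regions 6 were 40 kb or longer and 25 were 30 kb, of which the 2 with the largest ratios complete the 8 described. The longest region higher in siGPS2 spans 70 kb of the minus strand of chromosome 13, from 55230001 to 55300000. It held 184 reads in siCTL and 502 in siGPS2 with FCCP, 3.94-fold more after scaling (log2 1.98, 1.65 to 2.31), and 70 and 142 reads without FCCP (1.52, 0.99 to 2.04). Its occupied bins numbered 142 and 149 of 350, although siGPS2 had the fewer bins over the genome. On chromosome 11, minus strand, 46770001 to 46820000 held 150 and 322 reads (1.63, 1.21 to 2.06) and, without FCCP, 120 and 268. On chromosome 13, minus strand, 12820001 to 12860000 held 330 and 575 reads (1.33, 0.94 to 1.72) and, without FCCP, 150 and 279. All of these were higher in siGPS2 in each FCCP state. A region of 30 kb on chromosome 16, plus strand, from 91260001 to 91290000 held 58 and 153 reads, 3.80-fold more (1.93, 1.38 to 2.47), and 84 and 157 without FCCP. On chromosome 6, plus strand, 21930001 to 21970000 stood at 191 and 301 reads with FCCP (1.19, 0.70 to 1.67), while its interval without FCCP reached from -0.023 to 1.07. Chromosome 5, minus strand, 78410001 to 78450000 was higher by 1.76-fold from 552 and 672 reads. The other 2 of the 8 longest lie on chromosome 7, minus strand, from 143020001 (1009 and 1513 reads) and chromosome 3, plus strand, from 62730001 (59 and 165 reads).

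The longest region lower in siGPS2 spans 60 kb of the plus strand of chromosome 7, from 112540001 to 112600000. It held 858 reads in siCTL and 269 in siGPS2, 2.20-fold fewer after scaling (log2 -1.14, -1.49 to -0.79), and 624 and 277 without FCCP (-0.67, -0.98 to -0.35). On chromosome 5, plus strand, 145050001 to 145100000 fell from 288 reads in siCTL to 62 in siGPS2 (-1.67, -2.07 to -1.27), and from 396 to 95 without FCCP (-1.55, -1.95 to -1.16). These 2 regions were lower in siGPS2 on reads in both FCCP states. On occupied bins their log2 ratios, in the same order, were -0.39 and -0.95 with FCCP, and -0.0076 and -0.43 without. On chromosome 17, plus strand, 75140001 to 75190000 held 410 and 86 reads with FCCP, 3.28-fold fewer (-1.71, -2.18 to -1.25). Without FCCP it held 250 and 152, and its interval, -0.57 to 0.14, included 0. Its bins went the same way, 193 in siCTL against 56 in siGPS2.

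Others of the 8 longest rested more on the number of reads per bin. Chromosome 12, minus strand, 81130001 to 81180000 held 1399 and 491 reads (-0.98, -1.28 to -0.67), and 1264 and 515 without FCCP. Its siCTL reads filled 245 of the 250 bins, near the most that bins can show, and on bins its log2 ratio had the other sign, 0.20. The same turn of sign on bins was seen on chromosome 6, minus strand, from 118880001 (906 and 334 reads, bins 0.034), chromosome 12, plus strand, from 116750001 (1220 and 483 reads, bins 0.24) and chromosome 5, minus strand, from 91390001 (1076 and 429 reads, bins 0.19). In each of them siCTL reads filled at least 241 of 250 bins. Of these, chromosome 12, plus strand, from 116750001 held 702 and 472 reads without FCCP, with an interval from -0.39 to 0.25. The last of the 8, on chromosome 4, plus strand, from 136780001, held 668 and 165 reads, and 1236 and 226 without FCCP.

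**Figure D3:**
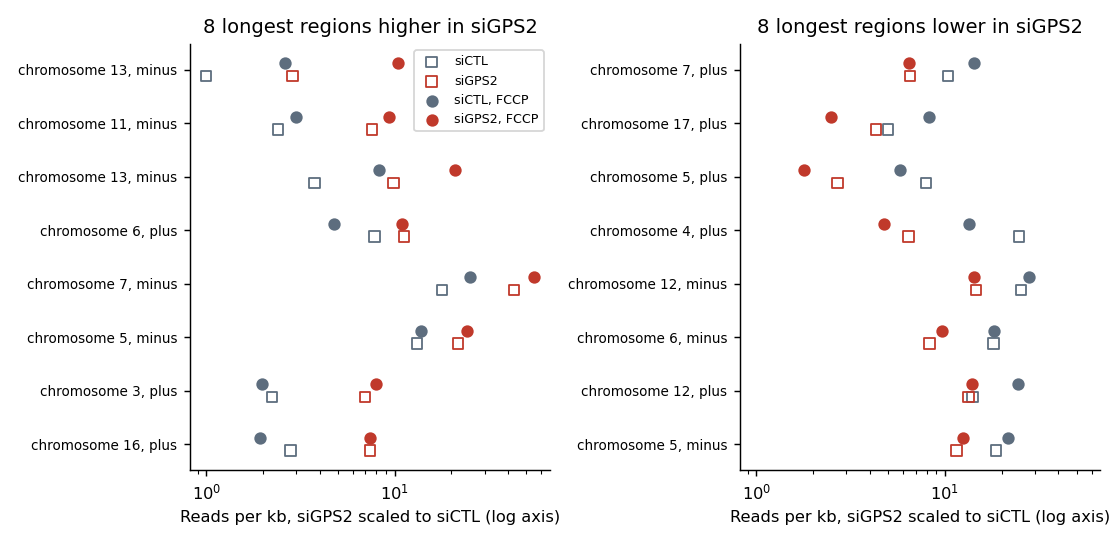
Reads per kb (x axis, log axis) in the 8 longest regions called higher (left) and lower (right) in siGPS2 with FCCP, ties in length broken by the size of the ratio, one row per region, with siGPS2 counts multiplied by 1.45 with FCCP and 1.42 without to bring them to the scale of siCTL in the same FCCP state. Filled circles are the libraries with FCCP and open squares those without, in red for siGPS2 and grey for siCTL. In the left panel siGPS2 lies to the right of siCTL in all 16 pairs, and on the right it lies to the left, by little in the pairs without FCCP on chromosome 17 and on the plus strand of chromosome 12.

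Transcription units were approximated by stretches that the 2 compared libraries did not choose: runs of 3 or more windows of 1 strand with at least 20 reads each in the pooled libraries without FCCP. There were 6243, with a median length of 60 kb and up to 980 kb, and they held 84.8% of siCTL and 82.6% of siGPS2 reads with FCCP. Most differed little between the siRNAs. The median log2 ratio was -0.08, with quartiles of -0.32 and 0.19, and -0.07 on occupied bins. By a ratio of at least 1.5-fold and a 99.9% jackknife interval, 95 were higher in siGPS2 (1.52%) and 212 lower (3.4%). On occupied bins 91 of the 95 and 167 of the 212 had the same sign as on reads, against 67.6% of all stretches.

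In the pair without FCCP 37.4% of all stretches lay above 0 and 62.6% below, and 74.8% had the same sign in both pairs. Of the 95 higher stretches 89 lay above 0 there, with a median log2 ratio of 0.57 against 0.93 with FCCP. Of the 212 lower 203 lay below, with -0.68 against -0.78. These stretches were picked on the pair with FCCP, so their ratios in that pair lean away from 1. Called the same way in both pairs were 24 higher stretches, 25.3% of the list with FCCP and 39.3% of the 61 without it (0.977% of stretches). For lower stretches the number was 101, or 47.6% of the list with FCCP and 31.3% of the 323 without it (5.17%). Stretches called in opposite directions numbered 0. Over all 6243 stretches Pearson's r of the log2 ratios was 0.67, a description only, since both pairs set the same 2 kinds of library against each other and the stretches were found on the libraries of one pair.

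**Figure D4:**
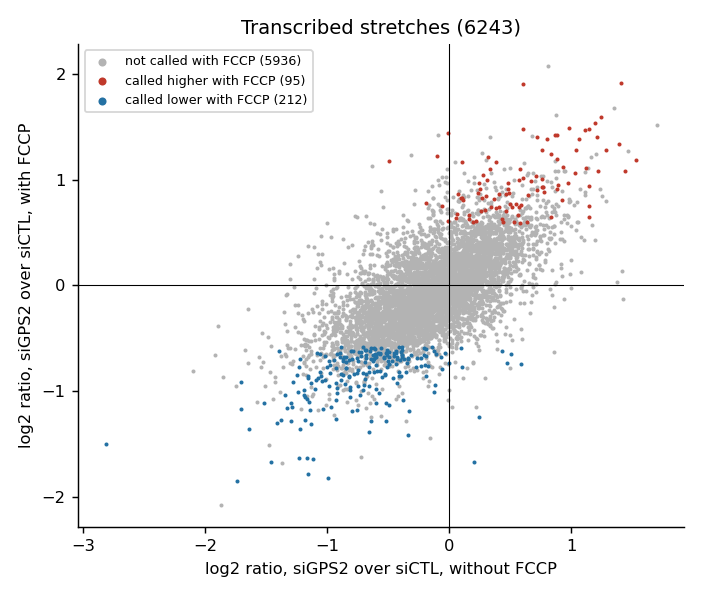
Log2 ratio of siGPS2 over siCTL with FCCP (y axis) against the same ratio without FCCP (x axis) for the 6243 stretches, 1 point each, with those called with FCCP in red (95 higher) and blue (212 lower). The called stretches lie mostly at the lower left and upper right, 203 of 212 and 89 of 95.

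The 8 stretches that stood highest on occupied bins, with reads of the same sign, were 30 to 70 kb long. They were picked on the pair with FCCP, so a smaller ratio without it can follow from that choice alone. Chromosome 1, plus strand, 100480001 to 100550000 had 104 siCTL and 217 siGPS2 reads (log2 1.59, 1.14 to 2.04), on 89 and 103 bins, and 95 and 159 reads without FCCP. Chromosome 1, minus strand, 10370001 to 10410000 held 43 and 83 reads (1.47, 0.85 to 2.10), and 58 and 89 without FCCP. Chromosome 7, minus strand, 44340001 to 44370000, which includes the highest single window, held 88 and 163 reads (1.42, 0.72 to 2.12). These 3 were higher in both pairs. Chromosome 6, plus strand, 34410001 to 34440000 held 42 and 79 reads with FCCP (1.44, 0.70 to 2.17), but 63 and 44 without, a log2 ratio of -0.01. Chromosome 17, minus strand, from 25940001 (38 and 69 reads), chromosome 5, plus strand, from 149680001 (41 and 64) and chromosome 2, minus strand, from 29990001 (41 and 68) were also higher with FCCP. Without FCCP their intervals included 0, with log2 ratios of 0.80, 0.39 and 0.27, and on bins the first 2 lay slightly below 0 there (-0.095 and -0.020). In 1 of the 8, chromosome 1, plus strand, from 172920001, the interval of the read ratio included 0 (-0.88 to 1.59), with 60 and 53 reads on 10 and 11 bins.

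The stretches that stood lowest on occupied bins were sparse in siGPS2. Chromosome 2, plus strand, 179950001 to 179980000 had 122 siCTL and 23 siGPS2 reads (log2 -1.85, -2.60 to -1.10), and 134 and 28 without FCCP. Chromosome 7, minus strand, 16160001 to 16190000 held 103 and 22 reads (-1.67, -2.57 to -0.77), and 130 and 33 without FCCP. Chromosome 2, plus strand, 29170001 to 29210000 held 96 and 21 reads (-1.63, -2.40 to -0.86), and 93 and 29 without FCCP. Each of these was lower in siGPS2 in both FCCP states, by at least 2.24-fold. Chromosome 5, minus strand, from 140000001 held 117 and 28 reads (-1.51, -2.76 to -0.26), and chromosome 1, minus strand, from 10650001 held 83 and 24 (-1.24, -2.08 to -0.39). Chromosome 12, plus strand, from 119830001 to 119870000 held 94 and 20 reads with FCCP (-1.67, -2.58 to -0.76) and 59 and 48 without it. It was thus lower in siGPS2 in the pair with FCCP and not in the other. The stretch was picked on the pair with FCCP, so a weaker ratio without it can follow from that choice alone. The siCTL library without FCCP also comes from another sequencing run. For the remaining 2, chromosome 4, minus strand, from 129010001 (77 and 26 reads) and chromosome 7, minus strand, from 125250001 (78 and 40), the intervals of the read ratio included 0.

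The 10 most transcribed stretches, by reads per kb without FCCP, had read ratios between 1.51-fold lower and 1.18-fold higher in siGPS2. The highest, chromosome 10, minus strand, 119750001 to 119890000, had 12326 siCTL and 6126 siGPS2 reads with FCCP (log2 -0.48, -0.61 to -0.35), and 11012 and 6973 without. Chromosome 2, minus strand, 77670001 to 77760000 held 6905 and 3473 reads (-0.46, -0.58 to -0.33). The stretch on chromosome 10, minus strand, 117030001 to 117250000, held 10542 and 7138 reads, with an interval from -0.12 to 0.06. Only chromosome 2, plus strand, 117800001 to 117830000 was called, with 2077 and 949 reads (-0.60, -0.84 to -0.35). Without FCCP it stood at 1578 and 1192 reads, and siGPS2 was not lower there after scaling by 1.42. The other 6 lie on chromosome 6, minus strand, from 51370001, chromosome 1, minus strand, from 71510001 and from 88170001, chromosome 6, plus strand, from 4430001, chromosome 11, plus strand, from 94750001, and chromosome 17, plus strand, from 23530001. On occupied bins the log2 ratio was above 0 in all 10, from 0.29 to 0.68, since most of these stretches had nearly as many bins occupied in siGPS2 as in siCTL, such as 622 and 635 of 700 in the first.

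The ratio of siGPS2 to siCTL changed along the stretches, in the direction of transcription. In the summed reads of all stretches the log2 ratio with FCCP was -0.22 in the first window (289035 siCTL and 171457 siGPS2 reads), -0.11 in the inner windows and 0.26 in the last (226767 and 187154 reads). In the 10 kb after the end it was 0.35, and in the 10 kb after that 0.29, from 30008 and 26412 and from 23241 and 19604 reads. In the 10 kb before the start it was -0.22. siGPS2 thus had relatively more reads at and past the ends of stretches and fewer at their starts. Of the tested last windows 12.3% were called higher and 1.77% lower, against 4% and 9.83% of the tested first windows, with 5.96% and 7.49% over all windows.

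The difference between the ends needs no scale, since both come from the same libraries. In the 2507 stretches with at least 40 reads in the first and in the last window, the log2 ratio in the last exceeded that in the first by a median of 0.50 (1.42-fold), with quartiles of -0.15 and 1.16, and it did so in 1736 of them (69.2%). The median lay above 0 on all 19 chromosomes, from 0.28 to 0.71. Single stretches went both ways, but the shift was seen on every chromosome. It was as large without FCCP, a median of 0.52 over 2644 stretches. FCCP against no FCCP within 1 siRNA gave a median of 0 in siCTL and of -0.0062 in siGPS2. The shift was seen between the siRNAs, whose libraries also differ in kind, and not between the FCCP states. The siRNA and the kind of library cannot be told apart here.

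The 1482 stretches of 100 kb or more were divided into 10 segments of whole windows, and most of the change lay near the end. The segments were unequal in size, with 3146 windows in the first and 1979 in the tenth, so their steps are not equal distances. From the first to the seventh segment the log2 ratio went from -0.16 to -0.11, and it then reached -0.09, -0.03 and 0.25 in the last 3. By distance, it was 0.33 in the last 10 kb and 0.03 in the 10 kb before, and -0.11 in the next. Bins with at least 10 siGPS2 reads and at most 1 siCTL read numbered 17.0 per 100 windows in the first segment and 15.2 in the last, but 12.0 in the first 10 kb and 13.3 in the last 10 kb. Over all stretches they numbered 10.9 per 100 first windows, 17.3 per 100 inner windows and 11.8 per 100 last windows. The part of such bins in the shift was not tested. With 1 read kept from each cluster of reads within 10 bp the median difference between last and first windows was 0.43, and on occupied bins 0.22.

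**Figure D5:**
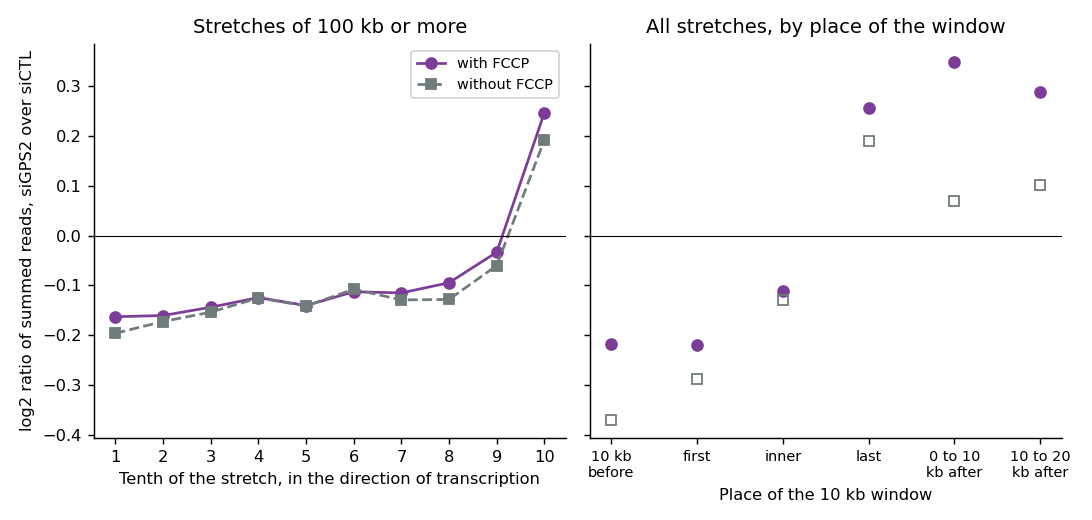
Log2 ratio of summed reads, siGPS2 over siCTL (y axis), by segment (1 to 10, of whole windows and unequal size) of the 1482 stretches of 100 kb or more (left) and by place of the 10 kb window in all 6243 stretches (right), with FCCP (purple circles) and without (grey squares). The ratio with FCCP goes from -0.16 in the first segment to 0.25 in the last, and stands at -0.22 in first windows and 0.26 in last windows. The pair without FCCP takes the same course up to the last window.

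Past the ends of stretches the 2 pairs were less alike. In the 10 kb after the end the log2 ratio was 0.35 with FCCP and 0.07 without, and in the next 10 kb 0.29 and 0.10. These windows lie outside the stretches by a rule applied to the reads without FCCP, which bears on the pair without FCCP and not on the other. The difference between the 2 was not tested.

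Near start sites no direction could be given. Divergent sites, where reads leave a point in both directions, were found on the libraries without FCCP, 1230 in all. Of their strands 351 had at least 10 reads in the first 300 bp and 20 reads from 1 to 5 kb with FCCP. The ratio of the first 300 bp to 1 to 5 kb, taken as a measure of pausing, was lower in siGPS2 on 203 strands and higher on 148, with a median log2 difference of -0.34 and quartiles of -1.57 and 1.05. In summed reads, however, it was higher in siGPS2: the density near the start was 2.04 times that of the body, against 1.78 in siCTL, from 3113 and 4043 reads near the start. With sites found on siCTL alone the median was -0.68, with sites found on siGPS2 alone 1.15, and on occupied 50 bp bins 0.11. The sign thus depended on both the measure and the choice of sites.

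Pile-ups were counted next. There were 8330 bins of 200 bp with at least 10 reads in siGPS2 with FCCP and at most 1 in siCTL with FCCP, and 3246 the other way round, although siCTL had the more reads. The former held 5.07% of siGPS2 reads, and 91.2% of them lay in stretches. In siGPS2 without FCCP, which did not choose them, they had a median of 11 reads, and 4928 (59.2%) again had 10 or more. In siCTL without FCCP the median was 1 read, and 14 had 10 or more. Of the bins high in siCTL, 948 (29.2%) again had 10 or more reads in siCTL without FCCP, with a median of 7. Each kind of bin was thus fuller in the other library of the same siRNA than in that of the other siRNA, where medians were 1 and 2 reads. The 5′ ends in such a bin spanned a median of 101 bp, against 166 bp in the bins high in siCTL.

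The fullest of these bins lies on chromosome 6, minus strand, from 145010201 to 145010400. It held 56 reads in siGPS2 and 1 in siCTL with FCCP, and 31 and 1 without, in a window with 166 and 199 reads. Chromosome 5, minus strand, 139230601 to 139230800 held 49 and 1 reads with FCCP and 81 and 8 without. Chromosome 15, plus strand, 12131801 to 12132000 held 47 and 1, and 48 and 3 without. The next 2 were on chromosome 6, plus strand, from 71794001 (43 and 1 reads) and chromosome 5, plus strand, from 104761601 (42 and 1). On the opposite strand each of the 5 bins had 0 siGPS2 reads with FCCP. Such bins occurred in 54.0% of windows called higher, in 1.88% of those called lower and in 17.6% of all tested windows. The bins and the calls rest on the same reads, and such a bin itself raises the siGPS2 count of its window. These shares therefore differ in part by definition.

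The 2 strands of 1 place were compared. At 1997 places both strands were tested, and Pearson's r between their log2 ratios was 0.07, a description over places that share libraries. Both strands were called higher at 17 places, both lower at 9, opposite ways at 11, and 1 strand alone at 463. Over all tested windows 13.5% were called. At that share a call on 1 strand mostly comes without a call on the other, even for unrelated strands. Whether calls on the 2 strands coincided more or less often than that was not tested.

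In some stretches the siGPS2 ratio itself differed between the FCCP states. The ratio with FCCP less that without was called in 121 stretches as higher with FCCP (1.94%) and in 76 as lower (1.22%), by 1.5-fold and a 99.9% jackknife interval. The siCTL library without FCCP comes from another sequencing run, and a difference between runs enters this comparison. On chromosome 8, minus strand, 67010001 to 67100000, a stretch of 90 kb, siCTL held 194 reads without FCCP and 241 with it, and siGPS2 162 and 70, a difference of -1.49 (-1.93 to -1.05). On chromosome 7, plus strand, 105350001 to 105380000, siCTL went from 95 to 31 reads and siGPS2 from 43 to 47, a difference of 1.76 (0.91 to 2.61). On chromosome 14, plus strand, 64620001 to 64670000, siCTL went from 102 to 37 and siGPS2 from 51 to 58, a difference of 1.67 (0.88 to 2.45). These 3 were chosen after their values were seen.

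Regions that responded to FCCP were taken as runs of 3 or more windows called the same way, FCCP over no FCCP, under both siRNAs. Such calls rose in 1.18% and fell in 0.533% of the 31722 windows with at least 40 reads under each siRNA, and formed 28 regions that rise and 5 that fall. All 4 libraries enter the rule, so their values are a description, and siCTL without FCCP is again from the other run. Some lie close together on 1 strand, so the 28 rising regions are not all separate places. An example is chromosome 9, plus strand, with regions from 64610001, 64650001 and 64690001. In the rising regions the log2 ratio of siGPS2 over siCTL was above 0 in 26 of 28 without FCCP, with a median of 0.57, and in 20 of 28 with FCCP, with a median of 0.23. Of the 31722 windows 49.7% and 50.1% lay above 0. The ratio was lower with FCCP than without in 24 of the 28 regions, and in 49.6% of the windows. The interval of this difference lay below 0 in 12 regions, above 0 in 0, and included 0 in the others.

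The largest such difference is on chromosome 9, minus strand, 61860001 to 61910000, where siCTL rose from 87 to 484 reads and siGPS2 from 159 to 400. Its log2 ratio was 1.37 without FCCP and 0.26 with it, a difference of -1.11 (-1.53 to -0.69). On chromosome 10, minus strand, 82910001 to 82970000, siCTL rose from 196 to 1175 reads and siGPS2 from 254 to 757, with ratios of 0.88 and -0.10 and a difference of -0.98 (-1.31 to -0.64). On chromosome 8, plus strand, 88380001 to 88420000, siCTL rose from 124 to 778 and siGPS2 from 159 to 466, a difference of -1.07 (-1.49 to -0.64). With FCCP the siRNAs did not differ beyond the interval in any of these 3, which were chosen after their values were seen. On occupied bins, in the same order, the log2 ratios were 1.24, 0.91 and 1.00 without FCCP and 0.064, 0.25 and 0.19 with it. On chromosome 13, minus strand, 12830001 to 12860000, inside a region named above, siGPS2 was higher in both states, by 1.33 without FCCP and 1.20 with it. The longest falling region, on chromosome 15, plus strand, from 27410001 to 27490000, went from 3599 to 1899 reads in siCTL and from 1575 to 868 in siGPS2. Its ratio was -0.69 without FCCP and -0.60 with it. On occupied bins the ratio had the other sign, 0.50 without FCCP and 0.10 with it. There siCTL reads filled 396 of the 400 bins without FCCP and 386 with it.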

How the data were processed

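The authors deposited 1 list of aligned reads per library (siCTL and siGPS2, each with 0 and 3 hours of FCCP). The submitters' processing notes name Bowtie, HOMER and mm8, without versions. Any further step is not stated in these sources. The deposited score in column 5, 0 to 42, was read as mapping quality. Start, end and strand together never recur within a library, as after removal of duplicates, and the files hold nearly equal read numbers, so the depths before this are unknown. 1 malformed line in 3 of the files was left out.

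Reads of score 10 or more were counted by 5′ end in 10 kb windows of each strand. Chromosomes M, X and Y and random contigs were not used. siGPS2 counts were scaled by the median ratio over 31607 windows with at least 20 reads in each library (1.45 with FCCP). Occupied bins had a scale of their own (1.63). Ratios are log2 with 0.5 added. Clopper-Pearson intervals cover counting error only, and jackknife intervals the spread between bins. Named are the 8 highest and lowest windows called on reads and bins, the 8 longest regions each way (ties by ratio), the 8 highest and lowest stretches on bins, the 10 densest stretches and the 5 fullest pile-ups. Members, rules and lists were chosen with earlier results of these data known. FCCP-responsive regions were called by the same rule. These and the measure between the ends of stretches were added after seeing the data. Python 3.11.15, NumPy 2.4.6 and SciPy 1.17.1 were used.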

Additional observations from a re-analysis of the deposited data

Results flagged for a closer look

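Reads of score below 10, which the comparison leaves out, made up 44.9% of siGPS2 with FCCP and 17.7% of siCTL with FCCP, so the library with the knockdown lost more of its reads. The siGPS2 ratio of 121 stretches was called higher with FCCP than without, and that of 76 lower, by an interval over bins and with no replicate. No condition has a second library, so samples far from their group could not be sought.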

How the results depend on the processing

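No paired analysis was possible because each group has 1 library, and for the same reason no library could be left out. Calls depended most on how piled-up reads were treated. With 1 read kept per cluster 435 windows were higher and 350 lower, sharing 372 and 324 with the main calls, and with occupied bins 5 and 10. Bins of 100 bp gave 91 and 32, bins of 500 bp 0 and 0, and the mean per bin from the empty share 124 and 57. A minimum of 100 reads, which tests fewer windows and moves the scale, left 1844 higher and 1405 lower. Windows of 5 kb gave 2337 and 4500, all reads 5273 and 4249, and score 42 alone 1359 and 2030. Without FCCP score 42 gave 1659 higher. Regions of 3 or more windows numbered 74 higher and 157 lower with all reads, 5 and 4 with 1 read per cluster, and 0 and 0 on bins. With total reads as scale they numbered 39 and 62. The median log2 ratio of stretches was -0.053 with all reads, -0.11 with score 42, -0.027 with total reads as scale, -0.030 with 1 read per cluster, and -0.11 in stretches found on siCTL without FCCP alone. The shift between last and first windows kept its sign under all 6 alternatives, with 0.22 on bins, 0.43 with 1 read per cluster and 0.39 in stretches found on siCTL. The pause difference was 0.11 on occupied bins, -0.68 with sites of siCTL and 1.15 with sites of siGPS2. Pile-ups of at least 20 reads numbered 714 in siGPS2 and 35 in siCTL, and on score 42 alone 4877 in siGPS2. On occupied bins the log2 ratio changed sign on chromosome 12, minus strand, from 81130001 (0.20), chromosome 6, minus strand, from 118880001 (0.034), chromosome 12, plus strand, from 116750001 (0.24) and chromosome 5, minus strand, from 91390001 (0.19), where siCTL fills nearly every bin. The 8 of the 10 densest stretches that lay below 0 also changed sign on occupied bins and with 1 read per cluster. The values were 0.68 and 0.33 on chromosome 10, minus strand, from 119750001, 0.68 and 0.48 on chromosome 2, minus strand, from 77670001, and 0.66 and 0.61 on chromosome 2, plus strand, from 117800001. They were 0.62 and 0.56 on chromosome 6, minus strand, from 51370001, 0.29 and 0.70 on chromosome 10, minus strand, from 117030001, and 0.64 and 0.31 on chromosome 1, minus strand, from 71510001. They were 0.49 and 0.42 on chromosome 11, plus strand, from 94750001, and 0.41 and 0.028 on chromosome 17, plus strand, from 23530001. With total reads as scale chromosome 10, minus strand, from 117030001 stood at 0.021 (0.041 with score 42) and chromosome 11, plus strand, from 94750001 at 0.037. Of the sparser stretches, chromosome 1, plus strand, from 172920001 was at -0.059 with score 42, and chromosome 4, minus strand, from 129010001 at 0.50 with all reads. Occupied bins cannot outnumber the bins there are, so they show little in dense stretches. Depth limits windows of 40 reads to differences well above 1.5-fold.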
